A study of Mus musculus with 24 samples.

Results

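Ceramide and sphingolipid synthesis was followed through 10 genes in mouse heart, picked by their symbols in the deposited gene annotation from the 20961 genes listed there. They are Sptlc1 and Sptlc2, Ormdl3, the ceramide synthase genes Cers2, Cers4, Cers5 and Cers6, Degs1, Smpd1 and Asah1. All 10 passed the filter on low counts, with 17203 genes in all. Between the 44% fat and the 10% fat diet none of the 10 passed the threshold on adjusted p-values, over the 3 strains together or in any strain alone. Between strains some did. Sptlc2 was higher in CAST/EiJ hearts and Smpd1 was lower there than in either of the other strains, and Ormdl3 was higher in NZO/HlLtJ than in C57BL/6J hearts.

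Sphingolipids are built from a serine and a fatty acid, which serine palmitoyltransferase joins in the step that sets the rate of the pathway. Ceramide synthases then attach another fatty acid, whose length depends on the synthase, and a desaturase turns the product into ceramide. Ceramide also comes from the breakdown of sphingomyelin in lysosomes and is itself broken down by ceramidases. In heart muscle it is known as a lipid that accumulates when fatty acid supply exceeds use and that interferes with insulin signalling.

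The 24 libraries of polyadenylated RNA came from hearts of wild-type mice (genotype WT, treatment None) of 3 inbred strains. NZO/HlLtJ mice grow obese on many gene variants, and their males often turn diabetic. CAST/EiJ derives from wild Mus musculus castaneus, and C57BL/6J is the strain of the reference genome. Males and females of each strain ate a diet labelled 44% fat + fiber, called high in fat and sugar, or the control labelled 10% fat + fiber, from week 6 until the heart was taken at week 15. Each of the 12 groups defined by strain, sex and diet held 2 libraries, so 12 libraries stood against 12 for diet, 8 against 8 for a pair of strains and 4 against 4 for diet within a strain. Whether both libraries within 1 group stem from different animals is not in the labels, and p-values therefore measure the spread between these libraries only, some of it possibly technical.

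Total counts per library lay between 30205073 and 52254058, and mitochondrially encoded genes took 20.2% to 28.8% of them. Their share was 25.8% to 28.8% in C57BL/6J, 20.2% to 23.4% in CAST/EiJ and 20.9% to 23.9% in NZO/HlLtJ, so C57BL/6J stood above both other strains. A fit without these genes is among the alternatives given below. The biological coefficient of variation was 0.127, and in all 12 groups the counts of both libraries lay further apart than sampling noise gives, at a chi-square of 11.6 to 68.4 for each degree of freedom. All 8 cardiomyocyte markers listed for the check of the tissue were measured, with summed levels of 51500 to 65500 CPM per library. CPM is the count divided by the scaled library total, times 1e6. A gene is called where the Benjamini-Hochberg adjusted p of edgeR's quasi-likelihood test, over all genes tested, is under 0.05. Changes are on the log2 scale with their standard errors (SE).

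Per length of transcript, Smpd1 stood far above the other members. It encodes acid sphingomyelinase, which releases ceramide from sphingomyelin, and had 65.9 ± 6.23 CPM per kb (SD, n = 24). Degs1, the dihydroceramide desaturase that finishes ceramide, followed at 23.9 ± 1.27 CPM per kb. Ormdl3, a membrane protein that restrains serine palmitoyltransferase, had 17 ± 1.5 CPM per kb and Cers2 had 15.9 ± 0.961 CPM per kb, which is within their spread. Below them came Asah1 at 10.3, Cers5 at 7.95 and Sptlc1 at 5.17 CPM per kb. Cers4 at 3.97 ± 0.507 and Sptlc2 at 3.7 ± 0.666 CPM per kb did not differ beyond their spread, and Cers6 was lowest at 1.47 ± 0.272 CPM per kb. The order was the same with the merged length of all annotated exons in place of the longest principal transcript. The merged length is never the shorter of these, so it cannot show how the order would stand with shorter transcripts.

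The members differed in how steady they were. Over the 24 libraries the coefficient of variation was 5.31% for Degs1, 5.96% for Asah1, 6.03% for Cers2 and 6.25% for Cers5. It was 18.5% for Cers6 and 18.0% for Sptlc2, the most variable pair, and 12.8% for Cers4. Strain accounted for 78.5% of the variance of Smpd1 and 67.6% of that of Sptlc2 on the log2 scale, against 4.87% for Cers2 and 3.57% for Degs1. Diet accounted for 18.0% in Sptlc1, its largest share, and for 0.0253% in Cers5, its smallest.

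**Figure D1:**
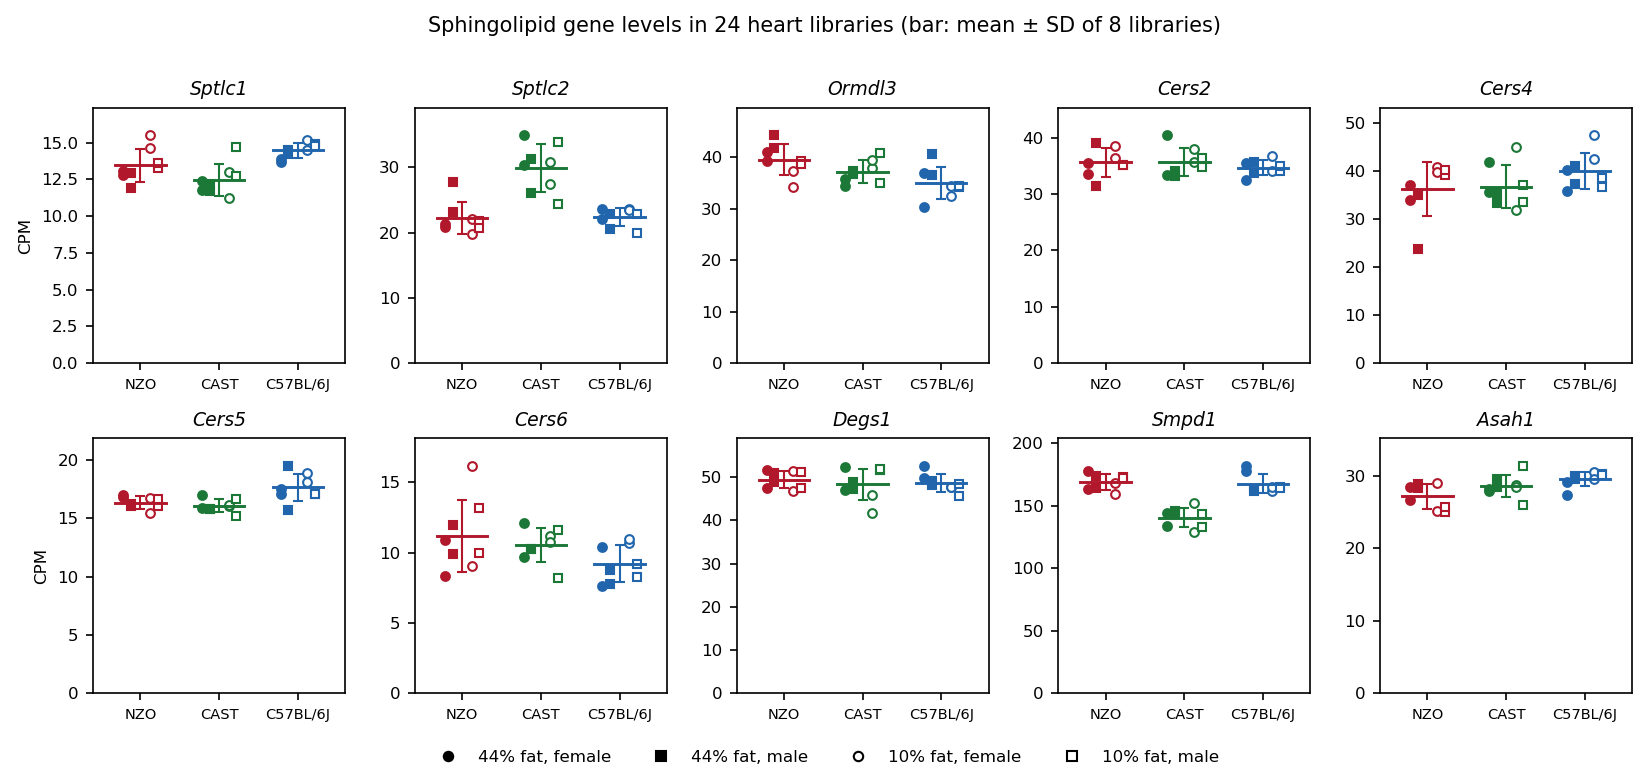
Level of each gene in CPM (vertical axis) in the 24 heart libraries by strain, with filled marks for 44% fat, open marks for 10% fat, circles for females, squares for males, and a bar with whiskers for the mean and SD of 8 libraries. The 8 CAST/EiJ libraries of Smpd1 lie between 129 and 152 CPM, below all libraries of the other strains.

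Of the 10 members, 2 were called between NZO/HlLtJ and C57BL/6J (against 35.5% of all genes tested), 1 higher (17.9% of all genes) and 1 lower (17.6%). Between CAST/EiJ and C57BL/6J 4 were called (against 58.8% of all genes tested), 1 higher (29.1% of all genes) and 3 lower (29.7%). Between NZO/HlLtJ and CAST/EiJ 2 were called (against 60.3% of all genes tested), 1 higher (30.5% of all genes) and 1 lower (29.8%). The median size of the members' differences on the log2 scale was 0.11 against 0.18 over all genes in the first comparison, 0.13 against 0.31 in the second and 0.08 against 0.31 in the third. The share of members called lay below that of all genes in each comparison. In a tissue sample, fewer cells of a type and less RNA per cell cannot be told apart. These comparisons share libraries, since each strain enters 2 of them.

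The serine palmitoyltransferase subunit gene Sptlc2 (ENSMUSG00000021036, chr12:87305058-87388355 in GRCm38, minus strand, protein coding) gave the largest difference. Its level was 24.4, 30.5 and 34.9 CPM (lowest, median and highest of 8 libraries) in CAST/EiJ hearts, against 19.9, 22.9 and 23.6 CPM in C57BL/6J hearts. NZO/HlLtJ hearts had 19.8, 21.5 and 27.8 CPM. Every CAST/EiJ library was above every C57BL/6J library, and 7 of the 8 NZO/HlLtJ libraries were below all of CAST/EiJ. Sptlc2 averaged 29.9 ± 3.67 CPM in CAST/EiJ and 22.4 ± 1.42 CPM in C57BL/6J (SD, n = 8 each), a log2 difference of 0.42 (SE 0.07, 95% interval 0.27 to 0.56, 1.33-fold, adjusted p = 3.18e-05). NZO/HlLtJ, at 22.2 ± 2.48 CPM, was lower than CAST/EiJ by a log2 difference of -0.43 (SE 0.07, adjusted p = 1.93e-05). Its difference from C57BL/6J was -0.02 (95% interval -0.16 to 0.13, adjusted p = 0.887). The CAST/EiJ difference from C57BL/6J had the same sign in all 4 combinations of sex and diet, at 0.31 to 0.51.

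The partner subunit gene Sptlc1 (ENSMUSG00000021468, chr13:53332716-53377365, minus strand, protein coding) went the other way. CAST/EiJ hearts had 11.2, 12.3 and 14.7 CPM (lowest, median and highest), against 13.7, 14.5 and 15.2 CPM in C57BL/6J hearts, and 7 of the 8 CAST/EiJ libraries were below all of C57BL/6J. The log2 difference was -0.22 (SE 0.05, 95% interval -0.32 to -0.12, adjusted p = 0.000643). NZO/HlLtJ hearts lay between them, with 11.9, 13.2 and 15.5 CPM, and did not differ from C57BL/6J past the threshold (-0.11, 95% interval -0.21 to -0.01, adjusted p = 0.0848) or from CAST/EiJ (0.11, adjusted p = 0.0553). The ratio of Sptlc2 to Sptlc1 per length of transcript was 0.941 ± 0.159 in CAST/EiJ, 0.648 ± 0.119 in NZO/HlLtJ and 0.6 ± 0.0443 in C57BL/6J (SD, n = 8 each). In one library of CAST/EiJ the ratio was 0.644, inside the C57BL/6J range of 0.518 to 0.667. In CAST/EiJ Sptlc2 stood above Cers4 per length (4.45 against 3.87 CPM per kb), while it stood below Cers4 in NZO/HlLtJ (3.31 against 3.82) and in C57BL/6J (3.33 against 4.21).

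Ormdl3 (ENSMUSG00000038150, chr11:98581256-98587368, minus strand, protein coding) was the member called higher in NZO/HlLtJ. Its level was 34.3, 39.3 and 44.3 CPM (lowest, median and highest) in NZO/HlLtJ hearts, 34.4, 37.0 and 40.9 CPM in CAST/EiJ hearts and 30.3, 34.5 and 40.6 CPM in C57BL/6J hearts. The ranges overlapped, with 3 NZO/HlLtJ libraries above all of C57BL/6J. NZO/HlLtJ averaged 39.5 ± 3.02 CPM and C57BL/6J 35.0 ± 3.11 CPM (SD, n = 8 each), a log2 difference of 0.17 (SE 0.04, 95% interval 0.08 to 0.27, 1.13-fold, adjusted p = 0.00508). It was positive in all 4 combinations of sex and diet (0.10 to 0.27). CAST/EiJ differed from C57BL/6J by 0.09 (adjusted p = 0.0957) and NZO/HlLtJ from CAST/EiJ by 0.08 (adjusted p = 0.11), neither past the threshold.

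The other ORMDL genes were lower in NZO/HlLtJ. Ormdl1 had 8.29 ± 0.928 CPM in NZO/HlLtJ and 10.7 ± 0.984 CPM in C57BL/6J (log2 -0.37, SE 0.07, adjusted p = 0.000277), and Ormdl2 had 2.55 ± 0.437 CPM in NZO/HlLtJ and 3.21 ± 0.45 CPM in C57BL/6J (-0.34, SE 0.12, adjusted p = 0.0301). Both were also lower in NZO/HlLtJ than in CAST/EiJ (-0.51, adjusted p = 2.32e-06, and -0.60, adjusted p = 0.000182). Exons of Ormdl1 overlap Gm28778 and exons of Ormdl2 overlap Dnajc14, so their counts are less certain than that of Ormdl3, whose exons overlap no other annotated gene. Per length of transcript, Ormdl3 made up 75.1% ± 3.02 of the summed ORMDL level in NZO/HlLtJ, 66.3% ± 2.66 in CAST/EiJ and 67.6% ± 1.32 in C57BL/6J (SD, n = 8 each). The NZO/HlLtJ libraries, at 70.3% to 79.8%, were all above the C57BL/6J libraries at 65.3% to 69.3%, and overlapped those of CAST/EiJ at 63.9% to 71.6%. These shares are a description and were not tested.

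**Figure D2:**
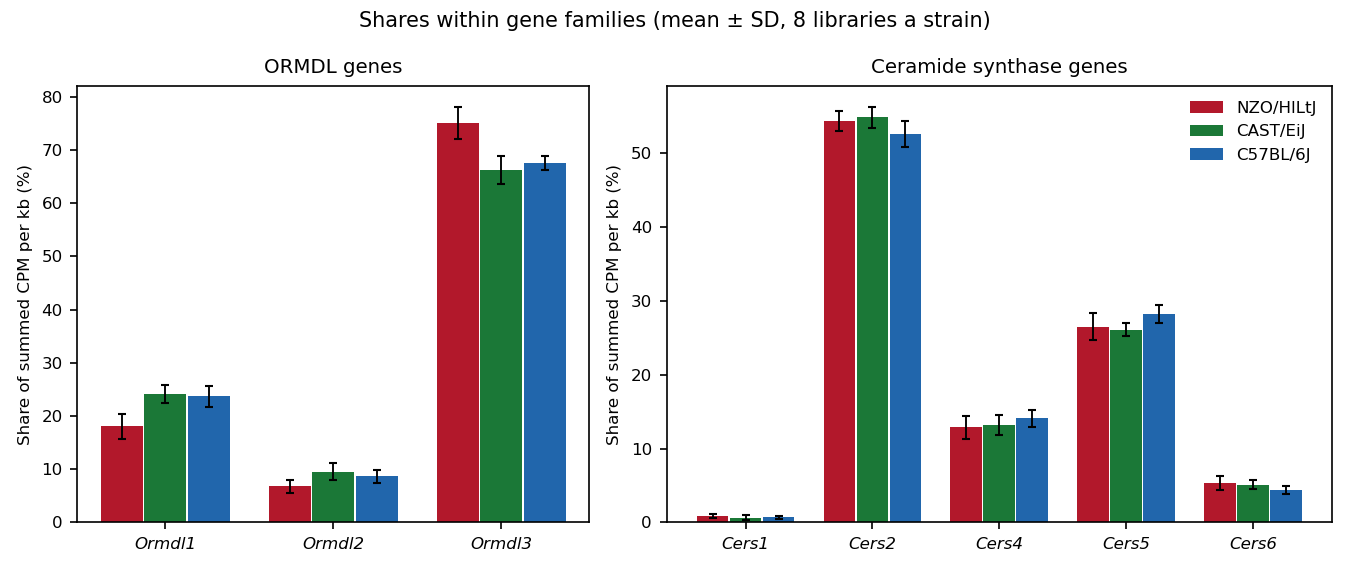
Share of each ORMDL gene (left) and of each ceramide synthase gene (right) in the summed level of its family, in percent of CPM per kb of transcript, as mean and SD of 8 libraries for each strain. Ormdl3 holds 75.1% in NZO/HlLtJ, 66.3% in CAST/EiJ and 67.6% in C57BL/6J, and Cers2 holds the largest share of the ceramide synthase level in each strain.

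The promoters of the 3 members whose strain calls held under each alternative run for them, Sptlc2, Ormdl3 and Smpd1, are shown for orientation. They are the 250 bases before and 50 bases after the RefSeq start of each gene in the C57BL/6J reference (GRCm38.p6), 5′ to 3′ on the strand of the gene. The alleles of the other strains were not analysed here. Capitals mark the GC box GGGCGG and the CCAAT box on either strand, where they read CCGCCC and ATTGG in reverse.
Sptlc2, chr12:87388306-87388605, minus strand: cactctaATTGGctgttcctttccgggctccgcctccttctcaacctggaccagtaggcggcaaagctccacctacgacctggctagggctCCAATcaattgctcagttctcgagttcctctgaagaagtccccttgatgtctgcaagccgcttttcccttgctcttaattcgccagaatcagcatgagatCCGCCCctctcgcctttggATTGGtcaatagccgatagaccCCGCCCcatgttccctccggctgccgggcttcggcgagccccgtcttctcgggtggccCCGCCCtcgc
Ormdl3, chr11:98587196-98587495, minus strand: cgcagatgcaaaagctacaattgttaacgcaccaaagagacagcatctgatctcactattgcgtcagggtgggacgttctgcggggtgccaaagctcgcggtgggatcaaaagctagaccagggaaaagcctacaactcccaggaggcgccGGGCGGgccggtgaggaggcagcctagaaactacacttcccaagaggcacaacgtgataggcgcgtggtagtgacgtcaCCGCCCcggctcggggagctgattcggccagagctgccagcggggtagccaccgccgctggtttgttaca
Smpd1, chr7:105554110-105554409, plus strand: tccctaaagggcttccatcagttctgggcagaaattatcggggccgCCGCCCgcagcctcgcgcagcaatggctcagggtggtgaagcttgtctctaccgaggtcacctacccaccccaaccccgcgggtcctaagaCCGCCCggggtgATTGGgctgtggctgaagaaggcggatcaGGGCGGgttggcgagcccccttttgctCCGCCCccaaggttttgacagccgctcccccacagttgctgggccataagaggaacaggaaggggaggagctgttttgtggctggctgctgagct
The window of Sptlc2 held 3 GC boxes and 3 CCAAT boxes, that of Smpd1 held 4 and 1, and that of Ormdl3 held 2 GC boxes. Of 32851 promoter windows of this length in the RefSeq table, 35.7% held a GC box and 37.4% a CCAAT box. No TATAAA was found in the 10 windows of the 9 members the table covers (13.6% of all windows held it). The E-box core CACGTG, present in 7.15% of all windows, was found in 1 window each of Cers2, Cers6 and Degs1. Asah1 has no entry in the table.

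Among the ceramide synthases, which differ in the fatty acids they attach, Cers2 is known for very long chains, Cers5 and Cers6 for palmitate and Cers4 for chains of intermediate length. Cers2 (ENSMUSG00000015714, chr3:95314791-95323599, plus strand) made up 54.0% ± 1.79 of the summed synthase level per length of transcript (SD, n = 24), Cers5 26.9% ± 1.6, Cers4 13.4% ± 1.41 and Cers6 4.96% ± 0.825. Cers1, the synthase known for stearate and for high levels in skeletal muscle and brain, made up 0.732% ± 0.282, and its exons overlap those of Gdf1 and Upf1. These shares rest on the transcript length used, 2216 bases for Cers2 and 9475 bases for Cers4. Before division by length, Cers4 averaged 37.6 ± 4.8 CPM and Cers2 35.3 ± 2.13 CPM (SD, n = 24). Which transcripts the hearts used was not tested. Cers2 averaged 35.6 ± 2.49 CPM in NZO/HlLtJ, 35.7 ± 2.47 CPM in CAST/EiJ and 34.7 ± 1.36 CPM in C57BL/6J, and its 95% intervals reached no further than -0.11 and 0.14 in any strain comparison. Up to 144 bases of its exons overlap 6330562C20Rik and Setdb1 on the other strand.

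Among the members, Cers5 (ENSMUSG00000023021, chr15:99734881-99772885, minus strand) was the synthase called between strains. It had 15.2, 15.9 and 17 CPM (lowest, median and highest) in CAST/EiJ hearts, against 15.7, 17.3 and 19.5 CPM in C57BL/6J hearts. The ranges overlapped, with 1 CAST/EiJ library below all of C57BL/6J. The log2 difference was -0.14 (SE 0.05, 95% interval -0.23 to -0.04, adjusted p = 0.0171) and was negative in all 4 combinations of sex and diet. NZO/HlLtJ, with 15.4, 16.4 and 17 CPM, lay at a similar distance from C57BL/6J without passing the threshold (-0.11, SE 0.05, adjusted p = 0.0742). The choice of libraries mattered here, since without C57BL/6J male 44% fat replicate 2 the CAST/EiJ difference was not called (adjusted p = 0.0707) and without replicate 1 of the same group the NZO/HlLtJ difference was (adjusted p = 0.0131).

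Cers6 (ENSMUSG00000027035, chr2:68861441-69114282, plus strand) had the widest spread. Its level was 8.37, 10.4 and 16.2 CPM in NZO/HlLtJ, 8.22, 10.6 and 12.1 CPM in CAST/EiJ and 7.66, 8.98 and 11 CPM in C57BL/6J. The ranges overlapped throughout. The differences from C57BL/6J were 0.28 (95% interval 0.03 to 0.53, adjusted p = 0.0784) in NZO/HlLtJ and 0.20 (-0.06 to 0.45, adjusted p = 0.173) in CAST/EiJ, so an increase of the size seen for Sptlc2 lies inside both intervals. Without NZO/HlLtJ female 10% fat replicate 2 the NZO/HlLtJ difference was 0.37 (adjusted p = 0.00776), and without C57BL/6J female 44% fat replicate 2 it was 0.34 (adjusted p = 0.0489). Cers4 (ENSMUSG00000008206, chr8:4493026-4531680, plus strand), whose exons overlap Gm36956 and a pseudogene on the other strand, averaged 36.2 ± 5.65 CPM in NZO/HlLtJ, 36.7 ± 4.51 CPM in CAST/EiJ and 39.9 ± 3.77 CPM in C57BL/6J. Its differences from C57BL/6J were -0.15 in NZO/HlLtJ (95% interval -0.31 to 0.02, adjusted p = 0.16) and -0.12 in CAST/EiJ (-0.29 to 0.05, adjusted p = 0.204). Cers4 passed in NZO/HlLtJ without NZO/HlLtJ male 44% fat replicate 1 (adjusted p = 0.0127) and in CAST/EiJ without CAST/EiJ female 10% fat replicate 1 (adjusted p = 0.0295).

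Degs1 (ENSMUSG00000038633, chr1:182275772-182282804, minus strand) was the steadiest member. It averaged 49.5 ± 2.0 CPM in NZO/HlLtJ, 48.4 ± 3.63 CPM in CAST/EiJ and 48.7 ± 2.05 CPM in C57BL/6J (SD, n = 8 each). The 95% intervals of its 3 strain differences stayed between -0.09 and 0.11.

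Smpd1 (ENSMUSG00000037049, chr7:105554360-105558388, plus strand, protein coding) separated CAST/EiJ from both other strains. Its level was 129, 143 and 152 CPM (lowest, median and highest) in CAST/EiJ hearts, against 162, 164 and 182 CPM in C57BL/6J hearts. NZO/HlLtJ hearts had 159, 170 and 178 CPM. No CAST/EiJ library reached the lowest library of either other strain. The log2 difference of CAST/EiJ from C57BL/6J was -0.25 (SE 0.04, 95% interval -0.33 to -0.18, 0.839-fold, adjusted p = 7.15e-06), and NZO/HlLtJ was higher than CAST/EiJ by 0.26 (SE 0.04, adjusted p = 4.33e-06). Between NZO/HlLtJ and C57BL/6J the difference was 0.01 (95% interval -0.07 to 0.09, adjusted p = 0.872).

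Asah1 (ENSMUSG00000031591, chr8:41340197-41374773, minus strand, protein coding), the acid ceramidase that cleaves ceramide in lysosomes, was called lower in NZO/HlLtJ. It had 25, 27.5 and 29.0 CPM (lowest, median and highest) in NZO/HlLtJ hearts, against 27.4, 29.7 and 30.5 CPM in C57BL/6J hearts. The ranges overlapped, with 4 NZO/HlLtJ libraries below all of C57BL/6J. The log2 difference was -0.12 (SE 0.04, 95% interval -0.21 to -0.03, adjusted p = 0.0311). CAST/EiJ hearts lay between at 25.9, 28.5 and 31.4 CPM (difference from C57BL/6J -0.05, adjusted p = 0.365). The call of Asah1 was lost when any 1 of 9 libraries, 4 of NZO/HlLtJ and 5 of C57BL/6J, was left out (adjusted p up to 0.0904).

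The numbers in the sample identifiers of the labels fall into 3 ranges, and the first holds 4 CAST/EiJ, 4 C57BL/6J and no NZO/HlLtJ library. Within that range, with 1 library a group, CAST/EiJ differed from C57BL/6J by 0.30 for Sptlc2 (adjusted p = 0.002), -0.22 for Smpd1 (adjusted p = 0.00832), -0.17 for Sptlc1 (adjusted p = 0.0967) and -0.09 for Cers5 (adjusted p = 0.34). So the calls of Sptlc1 and Cers5 did not pass there. With the range as a term in the fit to all libraries, NZO/HlLtJ differed from C57BL/6J by 0.15 for Ormdl3 (adjusted p = 0.0253) and by -0.10 for Asah1 (adjusted p = 0.132). NZO/HlLtJ then differed from CAST/EiJ by -0.51 for Sptlc2 (adjusted p = 1.02e-06) and 0.28 for Smpd1 (adjusted p = 9.45e-06).

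**Figure D3:**
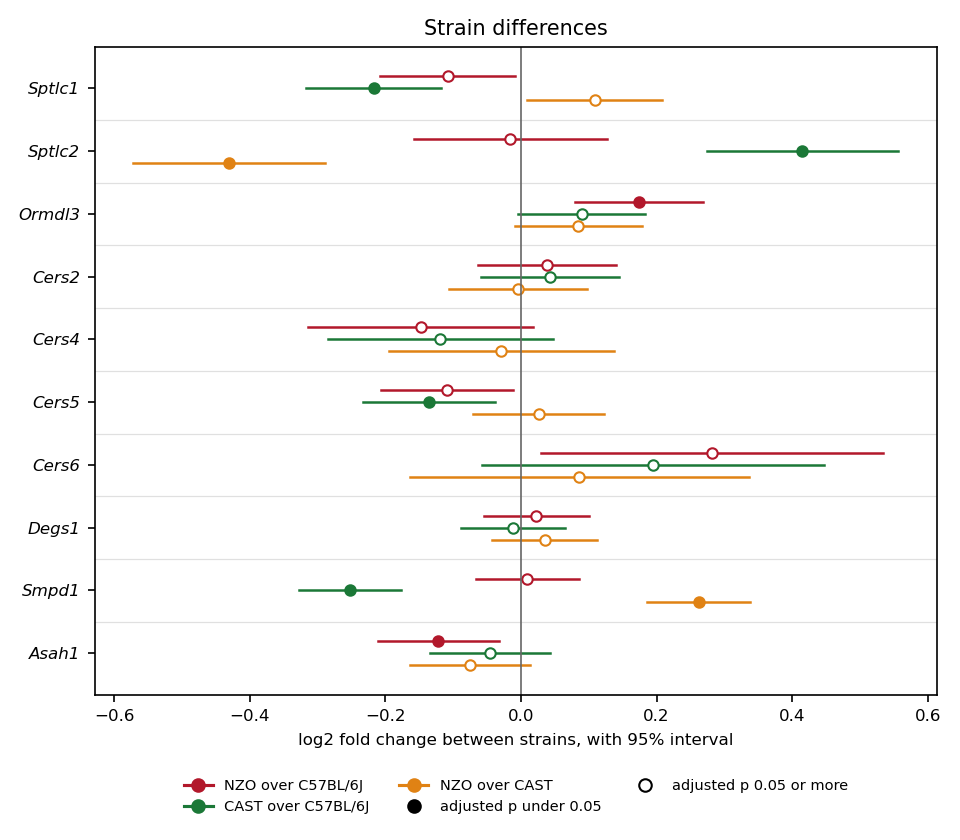
Strain differences of the 10 genes as log2 fold change (horizontal axis) with 95% intervals, NZO/HlLtJ over C57BL/6J, CAST/EiJ over C57BL/6J and NZO/HlLtJ over CAST/EiJ, filled where the adjusted p is under 0.05. Sptlc2 at 0.42 and Smpd1 at -0.25 in CAST/EiJ over C57BL/6J lie farthest from 0 on either side, and Degs1 and Cers2 stay near 0.

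Markers listed for other cell types also differed between strains. Between CAST/EiJ and C57BL/6J the summed levels did not overlap for 2 of 12 marker lists. The 6 smooth muscle and pericyte markers summed to 510 to 644 CPM in CAST/EiJ and 751 to 937 CPM in C57BL/6J, although 1 of the 6 was called higher and 2 lower. The 5 T and NK cell markers summed to 0.122 to 0.356 CPM in CAST/EiJ and 0.408 to 1.54 CPM in C57BL/6J. Between NZO/HlLtJ and C57BL/6J 3 lists did not overlap. The 6 fibroblast markers summed to 1450 to 1800 CPM in NZO/HlLtJ and 1020 to 1120 CPM in C57BL/6J, with all 6 called higher. The 3 measured skeletal muscle markers of 5 summed to 2560 to 4820 CPM in NZO/HlLtJ and 1330 to 1730 CPM in C57BL/6J, with 2 called higher. Their list held Acta1 and Ckm, which heart muscle also expresses, so it is not particular to skeletal muscle. The 4 Schwann and nerve markers summed to 8.95 to 11.7 CPM in NZO/HlLtJ and 5.7 to 8.26 CPM in C57BL/6J. Between NZO/HlLtJ and CAST/EiJ 5 lists did not overlap, these 5. The cardiomyocyte sums overlapped in all 3 comparisons. The part of these differences in those of Sptlc2, Smpd1, Ormdl3 and the other members was not tested.

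The study asks how diet acts on different genetic backgrounds. Over the 3 strains, edgeR called none of the 10 members between 44% and 10% fat, where 0.157% of all genes tested were called, and DESeq2, limma-voom and limma on the deposited variance-stabilized values called none either. At an unadjusted p under 0.05 there were 2 of 10, Sptlc1 and Cers4, where 8.81% of all genes were. The median size of the members' diet differences was 0.05 on the log2 scale, against 0.06 over all genes. Of the 10 differences, 6 were positive and 4 negative.

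Sptlc1 had the smallest p. Its level was 11.7, 12.8 and 14.5 CPM (lowest, median and highest of 12 libraries) at 44% fat, against 11.2, 14.6 and 15.5 CPM at 10% fat. The ranges overlapped. The log2 difference was -0.11 (SE 0.04, 95% interval -0.19 to -0.03, adjusted p = 0.37), negative in 5 of 6 combinations of strain and sex. Cers4 had 23.7, 35.7 and 41.8 CPM at 44% fat, against 31.8, 39.5 and 47.4 CPM at 10% fat, a log2 difference of -0.14 (SE 0.06, 95% interval -0.27 to -0.0029, adjusted p = 0.552).

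For the other members the 95% intervals of the diet difference over the strains bound what could have been missed. They ran from -0.02 to 0.11 for Degs1, from -0.03 to 0.10 for Smpd1, from -0.06 to 0.09 for Asah1 and from -0.07 to 0.08 for Cers5. Those of Ormdl3 (-0.03 to 0.13), Cers2 (-0.12 to 0.04) and Sptlc2 (-0.05 to 0.18) were somewhat wider. Cers6 was bounded least, at -0.33 to 0.08.

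**Figure D4:**
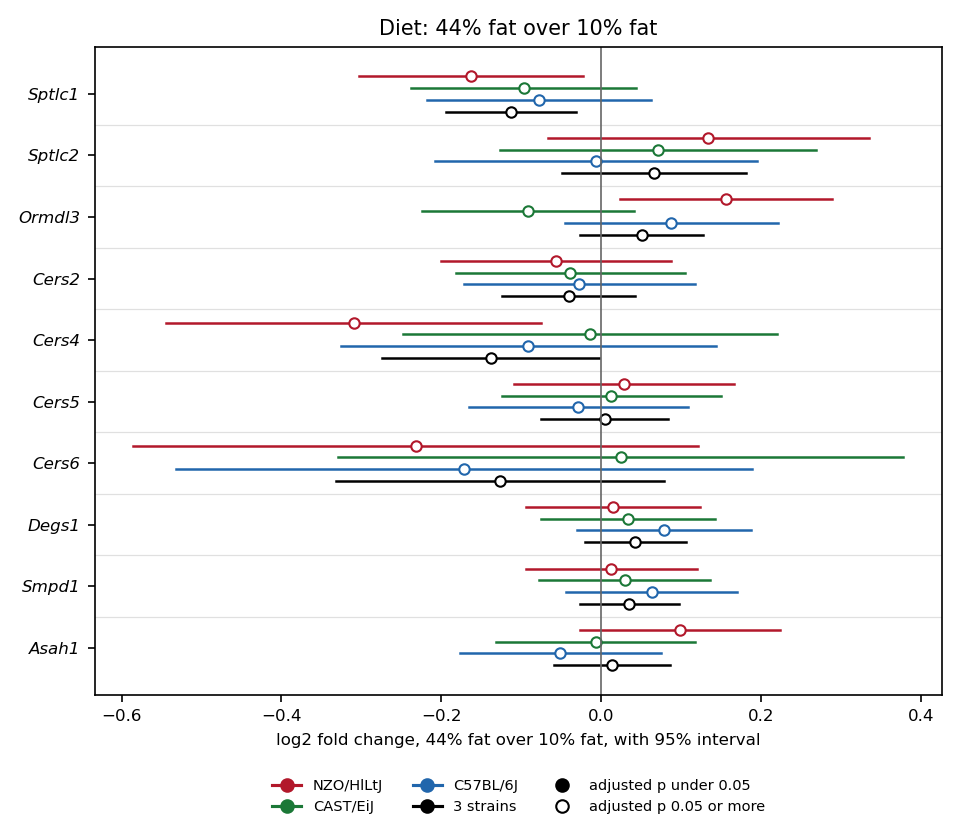
Diet differences of the 10 genes, 44% fat over 10% fat, as log2 fold change (horizontal axis) with 95% intervals, in NZO/HlLtJ, CAST/EiJ, C57BL/6J and the 3 strains together, with open marks where the adjusted p is 0.05 or more. No mark is filled, and Cers4 in NZO/HlLtJ lies farthest from 0, at -0.31.

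Within strains edgeR called no member either, with 0 calls among all genes tested in NZO/HlLtJ (0%) and in CAST/EiJ (0%), and 0.0407% called in C57BL/6J. At an unadjusted p under 0.05 there were 0 members in CAST/EiJ (6.61% of all genes) and 0 in C57BL/6J (5.62%). Library values within a strain are given for 2 females and then 2 males. In NZO/HlLtJ hearts 3 of 10 members, Cers4, Ormdl3 and Sptlc1, had an unadjusted p under 0.05, against 7.17% of all genes. Cers4 had 37.0, 33.9, 34.9 and 23.7 CPM at 44% fat, against 40.8, 39.8, 39.2 and 40.2 CPM at 10% fat. All 4 libraries on the diet high in fat were below the controls, 1 of them far below the rest. The log2 difference was -0.31 (SE 0.11, 95% interval -0.54 to -0.07, adjusted p = 0.616). Without NZO/HlLtJ male 44% fat replicate 1, the second highest of the 4 libraries at 44% fat, the fit gave -0.47. Cers4 passed the threshold in that fit and in no other fit run. The same fit also called more genes among all tested than any other fit of diet in NZO/HlLtJ, so the passing was not particular to Cers4.

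Ormdl3 in NZO/HlLtJ had 41.0, 39.3, 44.3 and 41.9 CPM at 44% fat, against 34.3, 37.3, 39.2 and 38.7 CPM at 10% fat. The libraries did not overlap, though the lowest at 44% fat was next to the highest at 10% fat. The log2 difference was 0.16 (SE 0.06, 95% interval 0.02 to 0.29, adjusted p = 0.646). In CAST/EiJ the same gene had 34.4, 35.7, 36.7 and 37.3 CPM at 44% fat, against 38.0, 39.5, 40.9 and 35.0 CPM at 10% fat, with overlap and a difference of -0.09 (adjusted p = 0.874). In C57BL/6J it had 30.3, 36.9, 36.5 and 40.6 CPM at 44% fat, against 32.5, 34.4, 34.2 and 34.5 CPM at 10% fat, with overlap and a difference of 0.09 (adjusted p = 0.955).

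Sptlc1 had 12.8, 13.1, 12.9 and 11.9 CPM at 44% fat in NZO/HlLtJ, against 15.5, 14.6, 13.3 and 13.6 CPM at 10% fat. In C57BL/6J it had 13.7, 13.9, 14.2 and 14.5 CPM at 44% fat, against 15.2, 14.5, 14.9 and 14.8 CPM at 10% fat. The diets did not overlap in NZO/HlLtJ and met at 14.5 CPM, to 3 digits, in C57BL/6J, with the 44% fat libraries lower. In CAST/EiJ, at 11.8, 12.4, 12.2 and 11.7 CPM on 44% fat, against 13.0, 11.2, 14.7 and 12.7 CPM on 10% fat, they overlapped. The log2 differences were -0.16 in NZO/HlLtJ (adjusted p = 0.652), -0.10 in CAST/EiJ (adjusted p = 0.876) and -0.08 in C57BL/6J (adjusted p = 0.967).

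The diet effects themselves were compared between strains. No member was called in the 3 differences of diet effects, in which 0%, 0.00581% and 0% of all genes tested were called for CAST/EiJ minus C57BL/6J, NZO/HlLtJ minus C57BL/6J and NZO/HlLtJ minus CAST/EiJ. At an unadjusted p under 0.05 there was 1 member, in the last of these (4.64% of all genes). It was Ormdl3, whose diet effect was 0.25 higher in NZO/HlLtJ than in CAST/EiJ on the log2 scale (SE 0.09, 95% interval 0.06 to 0.44, adjusted p = 0.973). For Cers4 the diet effect in NZO/HlLtJ minus that in CAST/EiJ was -0.30 (SE 0.16, adjusted p = 0.973).

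Males and females did not differ past the threshold for any of the 10 members by edgeR, with 0.372% of all genes tested called and 1 member at an unadjusted p under 0.05 (8.95% of all genes). That was Ormdl3, at 34.2, 38.0 and 44.3 CPM in males and 30.3, 36.3 and 41.0 CPM in females (lowest, median and highest of 12 libraries), a log2 difference of 0.09 (SE 0.04, adjusted p = 0.5).

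The other genes of sphingolipid metabolism were taken from a list of 74 symbols present in the annotation, of which 72 passed the filter on low counts. EdgeR called none of the 72 in any diet comparison or between the sexes, where 8 had an unadjusted p under 0.05 for diet over the strains (8.81% of all genes did), 9 in NZO/HlLtJ (7.17%), 9 in CAST/EiJ (6.61%), 5 in C57BL/6J (5.62%) and 3 for sex (8.95%). The smallest adjusted p by edgeR among the 72 for diet over the strains was 0.101, for a gene of sphingosine 1-phosphate metabolism and transport. Cers1, named here after its values were seen, averaged 0.59 CPM over the libraries (0.146 to 0.935 CPM), so few reads stand behind its changes. Its diet difference was -0.68 over the strains (SE 0.17, adjusted p = 0.145), 0.26 in NZO/HlLtJ (adjusted p = 0.872), -1.38 in CAST/EiJ (adjusted p = 0.165) and -0.93 in C57BL/6J (adjusted p = 0.601), none past the threshold. Between NZO/HlLtJ and C57BL/6J 24 were called, 14 higher and 10 lower (33.3%, against 35.5% of all genes tested). Between CAST/EiJ and C57BL/6J 46 were called, 22 higher and 24 lower (63.9%, against 58.8%), and between NZO/HlLtJ and CAST/EiJ 51, 29 higher and 22 lower (70.8%, against 60.3%). Exons of another annotated gene overlap those of Hexa, Galc, Sptssa, Cerk, Plekha8, Col4a3bp, B4galnt1 and Degs2 below, so their counts are less certain. The counts by role that follow stand against the same shares of all genes, 35.5% called in NZO/HlLtJ (17.9% higher, 17.6% lower) and 58.8% in CAST/EiJ (29.1% higher, 29.7% lower), both against C57BL/6J.

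Genes for the breakdown of glycosphingolipids were mostly lower in CAST/EiJ. Much of this breakdown takes place in lysosomes, where acid sphingomyelinase and acid ceramidase work. The list also held Gba2 and Neu3, whose enzymes are known mainly outside lysosomes. Of 13 genes tested 9 were called against C57BL/6J, 8 of them lower, with a median log2 difference of -0.33, against 0.00 over all genes. Psap, the precursor of the saposins that present lipids to lysosomal enzymes, had 891 ± 35.4 CPM in CAST/EiJ and 1120 ± 58 CPM in C57BL/6J (-0.33, SE 0.03, adjusted p = 6.11e-08). Hexa, a hexosaminidase subunit, had 29.9 ± 1.82 CPM in CAST/EiJ and 42.5 ± 3.32 CPM in C57BL/6J (-0.50, adjusted p = 4.39e-09). In NZO/HlLtJ 7 of the 13 were called against C57BL/6J, 3 higher (Galc, Neu3 and Gla) and 4 lower, among them Gm2a, the activator of GM2 ganglioside breakdown, at 8.81 ± 1.54 CPM in NZO/HlLtJ and 20.4 ± 1.3 CPM in C57BL/6J (-1.21, adjusted p = 2.25e-07). Gm2a was lower in CAST/EiJ too (10.5 ± 1.8 CPM, -0.95, adjusted p = 1.17e-06).

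Of the other 4 genes of serine palmitoyltransferase and its regulators, 2 were called between CAST/EiJ and C57BL/6J. Kdsr, the reductase of the following step, was higher (9.09 ± 1.08 CPM in CAST/EiJ and 7.45 ± 0.563 CPM in C57BL/6J, 0.29, adjusted p = 0.00422). Sptssa, a small activating subunit, was lower (15.1 ± 1.19 CPM in CAST/EiJ and 17.2 ± 0.613 CPM in C57BL/6J, -0.19, adjusted p = 0.00365). Against C57BL/6J, NZO/HlLtJ differed in Ormdl1 and Ormdl2, given above.

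Sphingomyelin genes were called in both strains against C57BL/6J, 2 of 9 in NZO/HlLtJ (both higher) and 6 of 9 in CAST/EiJ (4 higher, 2 lower). Samd8, which makes a ceramide phosphoethanolamine, had 37.9 ± 1.45 CPM in NZO/HlLtJ, 43.7 ± 3.56 CPM in CAST/EiJ and 26.5 ± 1.26 CPM in C57BL/6J (over C57BL/6J, 0.52 in NZO/HlLtJ, adjusted p = 2.67e-08, and 0.72 in CAST/EiJ, adjusted p = 6.74e-11). Sgms2, a sphingomyelin synthase, had 3.94 ± 0.385 CPM in NZO/HlLtJ, 3.71 ± 0.759 CPM in CAST/EiJ and 2.1 ± 0.356 CPM in C57BL/6J (over C57BL/6J, 0.90 in NZO/HlLtJ and 0.80 in CAST/EiJ). Smpdl3a, a relative of Smpd1, was lower in CAST/EiJ at 45.3 ± 2.25 CPM, against 53.6 ± 3.72 CPM in C57BL/6J (-0.24, adjusted p = 3.86e-05), a difference close to that of Smpd1 at -0.25.

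Among other ceramide-cleaving genes, 1 of 5 was called in NZO/HlLtJ and 4 of 5 in CAST/EiJ against C57BL/6J. Acer3, an alkaline ceramidase, had 14.4 ± 1.67 CPM in CAST/EiJ and 9.02 ± 0.723 CPM in C57BL/6J (0.67, adjusted p = 2.25e-07). Adipor1, an adiponectin receptor tied to ceramidase activity, had 177 ± 7.33 CPM in CAST/EiJ and 145 ± 6.63 CPM in C57BL/6J (0.28, adjusted p = 2.97e-05), and the neutral ceramidase gene Asah2 had 13.8 ± 1.22 CPM in CAST/EiJ and 18.2 ± 0.888 CPM in C57BL/6J (-0.40, adjusted p = 2.05e-06). Acer2 was higher in both strains, at 52.6 ± 16.3 CPM in NZO/HlLtJ (0.67, adjusted p = 0.046) and 58.5 ± 20.3 CPM in CAST/EiJ (0.83, adjusted p = 0.00916), against 32.6 ± 6.79 CPM in C57BL/6J.

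Transfer and phosphorylation of ceramide held 4 called genes of 5 in NZO/HlLtJ and 3 of 5 in CAST/EiJ. Cerk, the ceramide kinase, was lower in NZO/HlLtJ (34.9 ± 1.66 CPM, -0.33, adjusted p = 1.76e-06) and higher in CAST/EiJ (48.6 ± 1.84 CPM, 0.15, adjusted p = 0.00228), against 43.7 ± 2.45 CPM in C57BL/6J. Col4a3bp, the ceramide transfer protein that feeds sphingomyelin synthesis, was lower in both (42.9 ± 2.38 CPM in NZO/HlLtJ and 43.2 ± 2.94 CPM in CAST/EiJ, against 51.7 ± 1.38 CPM in C57BL/6J). Plekha8 was higher in both, by 0.25 in NZO/HlLtJ (adjusted p = 0.00489) and 0.39 in CAST/EiJ (adjusted p = 3.7e-05).

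Glycosphingolipid synthesis held 2 called genes of 6 in NZO/HlLtJ (35.5% of all genes) and 5 of 6 in CAST/EiJ (58.8%), 4 of these higher (29.1%). St3gal5, the GM3 ganglioside synthase, had 74.4 ± 5.02 CPM in CAST/EiJ and 41.3 ± 3.16 CPM in C57BL/6J (0.85, SE 0.04, adjusted p = 2.61e-12). B4galnt1, which acts after it, had 3.3 ± 0.347 CPM in CAST/EiJ and 2.09 ± 0.582 CPM in C57BL/6J (0.66, adjusted p = 0.00048). Ugcg, which makes glucosylceramide from ceramide, was the 1 lower, at 13.2 ± 1.45 CPM in CAST/EiJ and 17.3 ± 1.16 CPM in C57BL/6J (-0.39, adjusted p = 6e-05).

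Sphingosine 1-phosphate genes and chain elongation moved in either direction. Of 11 genes of sphingosine 1-phosphate metabolism and transport, 2 were called in NZO/HlLtJ (both higher) and 7 in CAST/EiJ (2 higher, 5 lower), and of 5 receptors 1 in NZO/HlLtJ and 3 in CAST/EiJ. The receptor gene S1pr2 was higher in NZO/HlLtJ (8.21 ± 0.846 CPM, 0.56, adjusted p = 2.42e-05) and lower in CAST/EiJ (4.76 ± 0.811 CPM, -0.24, adjusted p = 0.0195), against 5.58 ± 0.511 CPM in C57BL/6J. Of 12 elongation genes 3 were called in NZO/HlLtJ and 6 in CAST/EiJ. Tecr, the reductase that closes each elongation round, was higher in NZO/HlLtJ (244 ± 11.8 CPM, 0.41, adjusted p = 9.26e-07) and lower in CAST/EiJ (145 ± 15.3 CPM, -0.34, adjusted p = 3.52e-06), against 184 ± 17.6 CPM in C57BL/6J. Elovl5 was higher in CAST/EiJ at 48.1 ± 4.65 CPM, against 26.8 ± 1.28 CPM in C57BL/6J (0.84, adjusted p = 7.9e-11). Of 2 other synthase and desaturase genes, Degs2 was called higher in CAST/EiJ (0.39, adjusted p = 0.0235) and neither was called in NZO/HlLtJ, against C57BL/6J. Between NZO/HlLtJ and CAST/EiJ both were called (60.3% of all genes tested were), Cers1 higher and Degs2 lower in NZO/HlLtJ. Cers1 was low throughout, at 0.715 ± 0.171 CPM in NZO/HlLtJ and 0.493 ± 0.265 CPM in CAST/EiJ.

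**Figure D5:**
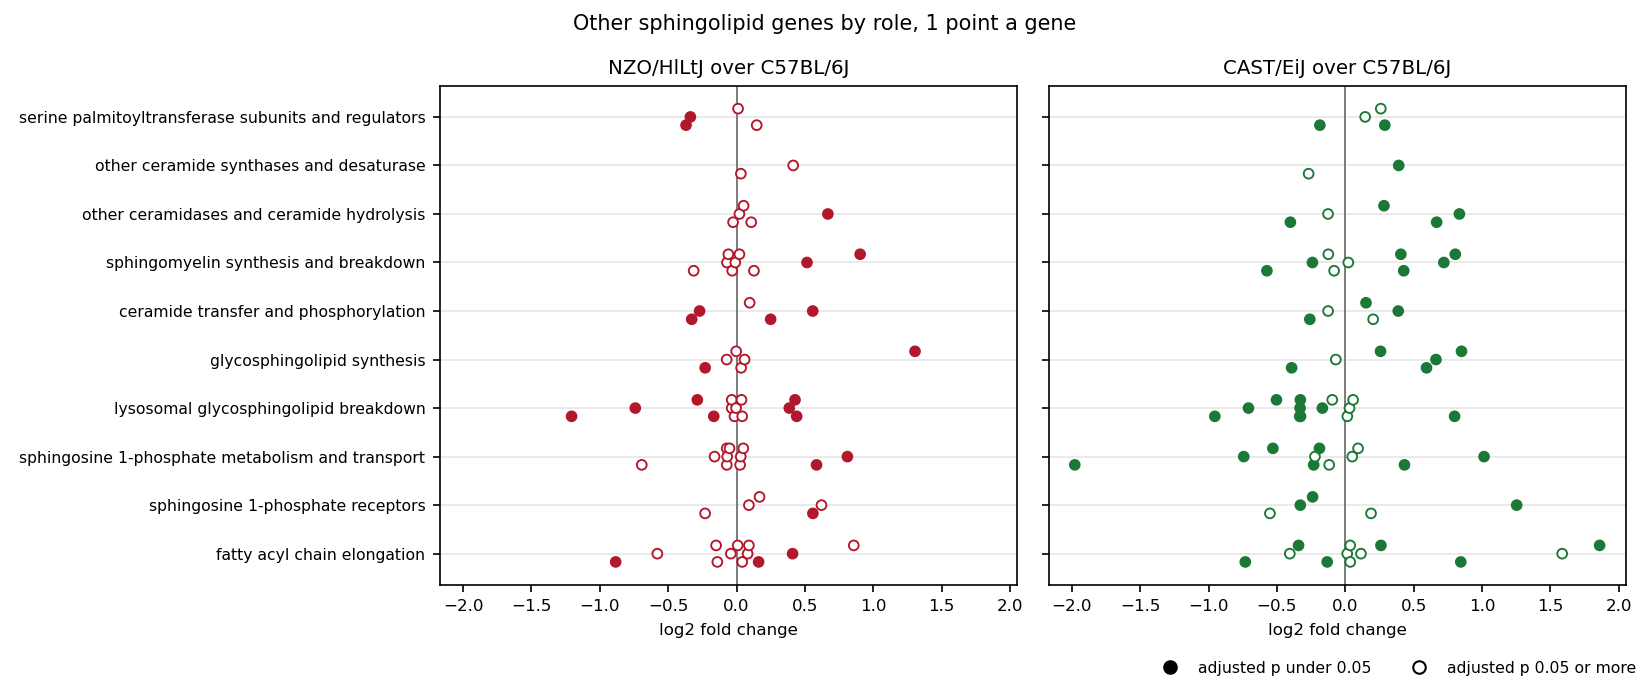
Log2 fold change (horizontal axis) of the 72 other sphingolipid genes tested, 1 point a gene by role, for NZO/HlLtJ over C57BL/6J (left) and CAST/EiJ over C57BL/6J (right), filled where the adjusted p is under 0.05. In the row labelled lysosomal glycosphingolipid breakdown, which also holds Gba2 and Neu3, 8 of 9 filled points in CAST/EiJ lie below 0.

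The genes whose log2 levels went most closely with a member's over the 24 libraries were found among all genes tested, which share libraries and strain means, so the values are a description. Smpd1 went with Trim72 (Pearson r = 0.93), a muscle gene of membrane repair, and Rxrg (0.926), a retinoid X receptor. Sptlc2 went with Atxn1l (0.911) and Wdr26 (0.91), and Sptlc1 with Elp2 (0.843) and Ddhd1 (0.834). Cers5 went with Rdx (0.823), Cers4 with Prpsap2 (0.817), Asah1 with Polr1d (0.807) and Ormdl3 with Tesk1 (0.796). Cers6 with Igfbp3 (0.726), Degs1 with Rtn4ip1 (0.714) and Cers2 with Clec4a2 (0.648) had the loosest partners.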

How the data were processed

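The authors deposited expected counts for each gene, 19.3% of them broken numbers (off a whole number by over 1e-06), and variance-stabilized values, which run on a scale close to log2. The submitters' processing notes name GRCm38 and DESeq2. Not given in the sources used here are aligner, counting program, strand handling and annotation release. Libraries are of polyadenylated RNA with paired reads of 100 bases, per the labels' protocols.

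Expected counts were rounded and fitted in edgeR 4.0.16 (R 4.3.3) with TMM factors (0.954 to 1.06), filterByExpr (minimum count 10, minimum total 15, which removed 3758 genes) and a robust quasi-likelihood model of 12 group means over the 24 libraries. The 11 contrasts weighted groups equally, and p-values were adjusted over all 17203 genes. Limma 3.58.1 and DESeq2 1.42.0 served as alternatives. CPM per kb used the longest principal transcript of GENCODE M21, and promoters came from RefSeq (GRCm38.p6). On simulated data with 200 changed genes, a log2 change of 0.25 was recovered in 75.5% for diet over all strains (16738 genes) and in 47% for NZO/HlLtJ minus C57BL/6J (16756 genes), and one of 0.5 in 96% (16760 genes) and 95.5% (16758 genes). False calls made up 3.05% to 6% of the calls. The changed genes were drawn from those averaging above 10 CPM and no other gene differed, unlike between the strains here. Recovery in the strain comparisons may therefore differ from these values.

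The members and gene lists were chosen with earlier results of these data known. Named were the 10 members, up to 4 called genes of smallest adjusted p per role and direction, some of which are not reported here, and the genes of highest correlation with each member, without predicted names.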

Additional observations from a re-analysis of the deposited data

Results flagged for a closer look

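In 90 groups of libraries (10 members, each in 3 strains of 8 libraries and 6 combinations of strain and diet of 4), 6 held a library far from the others by Dixon's criterion, which flags about 1 in 20 groups by chance. NZO/HlLtJ male 44% fat replicate 2 was the highest NZO/HlLtJ library for Sptlc2 (27.8 CPM, next 23.2 CPM) and the lowest for Cers4 (23.7 CPM, next 33.9 CPM). CAST/EiJ female 44% fat replicate 1 was the highest of the 4 CAST/EiJ libraries at 44% fat for Cers2 (40.4 CPM, next 34.0 CPM) and for Cers5 (17 CPM, next 15.9 CPM). C57BL/6J female 44% fat replicate 2 had the lowest Asah1 of its strain (27.4 CPM, next 29.2 CPM). C57BL/6J female 10% fat replicate 1 had the lowest Ormdl3 of the 4 C57BL/6J libraries at 10% fat (32.5 CPM, next 34.2 CPM). None of the calls of Sptlc2 in the report was lost without the library that stood apart in it.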

How the results depend on the processing

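No paired analysis was possible because the labels carry no replicate numbers, and those used here follow accession order and only name a library. No member was called for diet, for a difference of diet effects or for sex under size factors of the DESeq2 kind, no low-count filter, DESeq2, limma-voom, limma on the variance-stabilized values, removal of mitochondrially encoded genes, the identifier range as a term or, where run, the compared strains or the first identifier range alone. The calls of Sptlc2, Smpd1 and, in NZO/HlLtJ minus C57BL/6J, Ormdl3 held in each of these that was run for them and without each of the 24 libraries. The first identifier range holds no NZO/HlLtJ library, so calls that involve NZO/HlLtJ, that of Ormdl3 among them, could not be run in it. Leaving out 1 library in turn gave 0 to 1 member called for diet in NZO/HlLtJ, 1 to 3 for NZO/HlLtJ minus C57BL/6J, 3 to 5 for CAST/EiJ minus C57BL/6J and 2 to 4 for NZO/HlLtJ minus CAST/EiJ. Beside the changes of call given for Cers4, Cers5, Cers6 and Asah1 above, Ormdl3 was called in CAST/EiJ minus C57BL/6J without CAST/EiJ male 10% fat replicate 2 or C57BL/6J female 44% fat replicate 2. In NZO/HlLtJ minus CAST/EiJ, Sptlc1 was called without NZO/HlLtJ male 44% fat replicate 2, CAST/EiJ female 10% fat replicate 1 or CAST/EiJ male 10% fat replicate 1, Ormdl3 without the last of these, and Asah1 without NZO/HlLtJ female 10% fat replicate 1 or CAST/EiJ male 10% fat replicate 2. Gained were, with the identifier range as a term, Cers5 in NZO/HlLtJ minus C57BL/6J (adjusted p = 0.0432) and Sptlc1 in NZO/HlLtJ minus CAST/EiJ (0.0331, and 0.0493 by limma on the variance-stabilized values), and in the first range alone Ormdl3 in CAST/EiJ minus C57BL/6J (0.0381). Signs turned for the following values, none of them called. With the range as a term, NZO/HlLtJ minus CAST/EiJ was 0.014 for Cers2, 0.028 for Cers4 and -0.0021 for Cers5, and CAST/EiJ minus C57BL/6J for Cers4 was 0.0073 in the first range alone. Without 1 library, the ranges that crossed 0 were, in NZO/HlLtJ minus C57BL/6J, -0.051 to 0.015 for Sptlc2, -0.0043 to 0.074 for Cers2 and -0.0082 to 0.024 for Smpd1, in CAST/EiJ minus C57BL/6J -0.031 to 0.0068 for Degs1, in NZO/HlLtJ minus CAST/EiJ -0.047 to 0.031 for Cers2, -0.108 to 0.038 for Cers4 and -0.033 to 0.175 for Cers6, for diet over the strains -0.023 to 0.029 for Cers5 and -0.0078 to 0.038 for Asah1, and for diet in CAST/EiJ -0.127 to 0.124 for Cers4. The cause was not tested. Counts over all genes moved more: diet over the strains called 27 genes, 4 to 143 without 1 library and 17 to 105 under the other alternatives, diet in C57BL/6J 7 (1 to 20 and 0 to 38), diet in CAST/EiJ 0 (0 to 18 and 0 to 29), diet in NZO/HlLtJ 0 (0 to 113 and 0 to 13) and sex 64 (39 to 78 and 51 to 137). Dividing by merged exons, chosen after seeing the data, gave lower levels per length for most members (for Smpd1 47.6 against 65.9 CPM per kb) in the same order. Whether reads of NZO/HlLtJ and CAST/EiJ were counted as fully as those of C57BL/6J was not tested, and 2 libraries a group limit what can be seen of differences between diets.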

Other observations

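Within the 12 groups, the library with more Sptlc2 was the library with less Cers4 in 11, a pair chosen after its values were seen. Of the 45 pairs of members, no other went 1 way, the same or the opposite, in 10 or more of the 12 groups. In NZO/HlLtJ males on 44% fat, Sptlc2 was at 23.2 and 27.8 CPM and Cers4 at 34.9 and 23.7 CPM in the same 2 libraries.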
